A study of Mus musculus with 13 samples.

Results

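Sox9 and Yap1 are 2 of the 100 genes counted in mouse liver during regrowth after partial hepatectomy, the surgical removal of 2/3 of the liver. They were chosen by name, as the rows of these symbols in the tables of transcripts per cell and the lines of these symbols in the lists of transcript positions. RefSeq places Sox9 on chromosome 11 at 112782210 to 112787757 and Yap1 on chromosome 9 at 7931999 to 8004638 (assembly GRCm38.p6). The livers came from male C57BL/6 mice labelled as 2 months old, and each of the 13 samples is 1 frozen section. By time after surgery the sections were 0h (2), 24h (2), 48h (2), 72h (2), 14d (3), 3m (1) and 6m (1), where d is days and m is months. By the study's design text that was the age at surgery, so the mice at 3m and 6m were older when sampled, and age and time cannot be told apart there. The newly grown lobes were collected. Transcripts were read in place by Molecular Cartography, an in situ hybridization method that records each detected molecule as a point in the section.

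SOX9 is a transcription factor that in adult liver is made by the cells lining bile ducts and, at a lower level, by some hepatocytes next to the portal tract. YAP1 is the transcriptional co-activator that the Hippo pathway controls. The Hippo kinases act through the LATS kinases, which phosphorylate YAP1 and hold it in the cytoplasm. Unphosphorylated YAP1 enters the nucleus and acts with TEAD factors on growth genes. Its activity is set largely after translation, which a transcript count does not show. Bile duct cells are known to hold more YAP1 than hepatocytes, and Sox9 is a known YAP1 and Notch target in liver cells.

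The 13 sections held 131221 outlined cells with 55744933 transcripts, 33833 of Sox9 and 187978 of Yap1. Total counts per library were 2456278 to 9619206, and the median cell held 231 (6m) to 632 (a 14d section) transcripts. No label says that sections of a time came from separate mice, so the spread between them, and every p-value that rests on it, may be technical. Both 24h sections came from 1 slide position and were summed to 1 library, giving 12 libraries. The 14d sections lay on a slide of their own, so slide and time cannot be told apart for 14d. Hepatocyte genes were abundant in every library: the 9 pericentral genes together took 12.0% to 37.8% of its counts, and the 6 periportal genes took 19.1% to 33.2%. Of the 11 bile duct markers listed, the panel measures Sox9 and Cldn7 alone, so no cell is called a bile duct cell here.

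Sox9 was low at 0h, and 9 of the 10 later libraries lay above both 0h libraries. Scaled by the trimmed mean of M values (TMM), its level in CPM (counts per 1000000 counts) was 343 and 359 at 0h, 547 at 24h, 534 and 322 at 48h, 643 and 606 at 72h, 540, 718 and 661 at 14d, 393 at 3m and 910 at 6m. The second 48h library was the one below both 0h libraries, and the 6m library was the highest. Of the 99 genes tested, 8.08% had at least 9 of 10 later libraries above both 0h libraries on this scale. Group means were 351 ± 10.9 CPM at 0h, 428 ± 150 at 48h, 624 ± 26.1 at 72h (SD, n = 2 each) and 640 ± 90.7 at 14d (SD, n = 3). In the order of mean levels (0h, 3m, 48h, 24h, 72h, 14d, 6m), both 72h libraries lay inside the range of 14d, and the 48h libraries spanned 0h and 3m, so these neighbours did not differ beyond their spread. In summed counts, more cells with Sox9 and more Sox9 per cell cannot be told apart; counts per cell follow further on.

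Against 0h, Sox9 passed the test at 1 time, 6m. The log2 fold change there was 1.37 ± 0.43 (SE; 2.59-fold; edgeR quasi-likelihood test, Benjamini-Hochberg adjusted p = 0.0256), from a single 6m section whose spread is taken from the other times. Scaled by cell number that call was lost (log2 fold change 1.33, edgeR adjusted p = 0.0736), and it was also lost with every listed transcript counted in place of those inside cells (1.22, edgeR adjusted p = 0.0675). At 14d the log2 fold change was 0.87 ± 0.34 (edgeR adjusted p = 0.0608) and at 72h it was 0.83 ± 0.37 (edgeR adjusted p = 0.124). The values were 0.64 ± 0.44 at 24h (edgeR adjusted p = 0.348), 0.29 ± 0.36 at 48h (0.608) and 0.16 ± 0.44 at 3m (0.923). In this fit 22.2% of the 99 genes were called at 24h, 23.2% at 48h, then 15.2% at 72h, 28.3% at 14d and 23.2% at 6m. At 3m edgeR called 0% of them, while 12 genes lay under an unadjusted p of 0.05 and 2 were called by DESeq2. Over all 7 times together, 65.7% of genes varied by the edgeR test, and Sox9 was not among them (adjusted p = 0.0740).

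The size of the Sox9 difference depended on the scale. Relative to TMM, dividing by all counts moved the median gene's log2 fold change by 0.28 (6m) to 0.74 (14d), and dividing by cell number moved it by -0.06 (6m) to 1.47 (14d). Sox9 took 276 and 223 CPM of all counts at 0h, 527 at 24h, 567 and 396 at 48h, 604 and 600 at 72h, 718, 797 and 790 at 14d, 436 at 3m and 793 at 6m. All 10 later libraries were above both 0h libraries on this scale, as they were for 12.1% of genes. On it edgeR called Sox9 at 48h (log2 fold change 0.95, adjusted p = 0.0345), 72h (1.27, 0.0215), 14d (1.62, 0.00188) and 6m (1.67, 0.0119), where the median gene stood at 0.92, 0.54, 0.83 and 0.11. Per 100 cells there were 9.42 and 7.55 Sox9 transcripts at 0h, 18.8 at 24h, 18.9 and 14.5 at 48h, 30.9 and 26.8 at 72h, 44.4, 49.0 and 36.7 at 14d, 14.9 at 3m and 21.4 at 6m. The 10 later libraries again lay above both 0h libraries, as for 16.2% of genes, and edgeR called 72h (1.77, adjusted p = 0.00565) and 14d (2.35, adjusted p = 0.000218). The median gene stood at 1.05 and 1.57 there.

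Within a slide, Sox9 was above 0h in all but 1 library; slide 3, with the 14d sections, holds no 0h section. Against the 0h section of slide 1, the log2 TMM ratio of Sox9 was 0.67 at 24h, 0.64 and -0.09 at 48h, 0.90 at 72h and 0.19 at 3m. Against the 0h section of slide 2 it was 0.76 at 72h and 1.34 at 6m. At 6m the 2 measured of 6 Kupffer cell and macrophage markers, Adgre1 and Lyz2, summed to 12099 TMM-scaled CPM, against 6279 and 6478 CPM at 0h. Lyz2 weighs most in this sum, with 272893 transcripts in cells without Sox9 over the 12 libraries, against 39061 of Adgre1. The median log2 fold change of the 2 genes at 6m was 0.45, so the sum does not stand for each of them. The 1 measured stellate marker of 7, Lrat, stood at 3425 CPM at 6m, against 2178 and 2024 CPM at 0h. The single leukocyte marker of the 5 listed, Ptprc, had 677 CPM at 6m, against 724 and 1069 CPM at 0h, and the 4 measured of 9 endothelial markers summed to 3092 CPM, against 3621 and 3263 CPM. Their part in the Sox9 level was not tested.

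**Figure D1:**
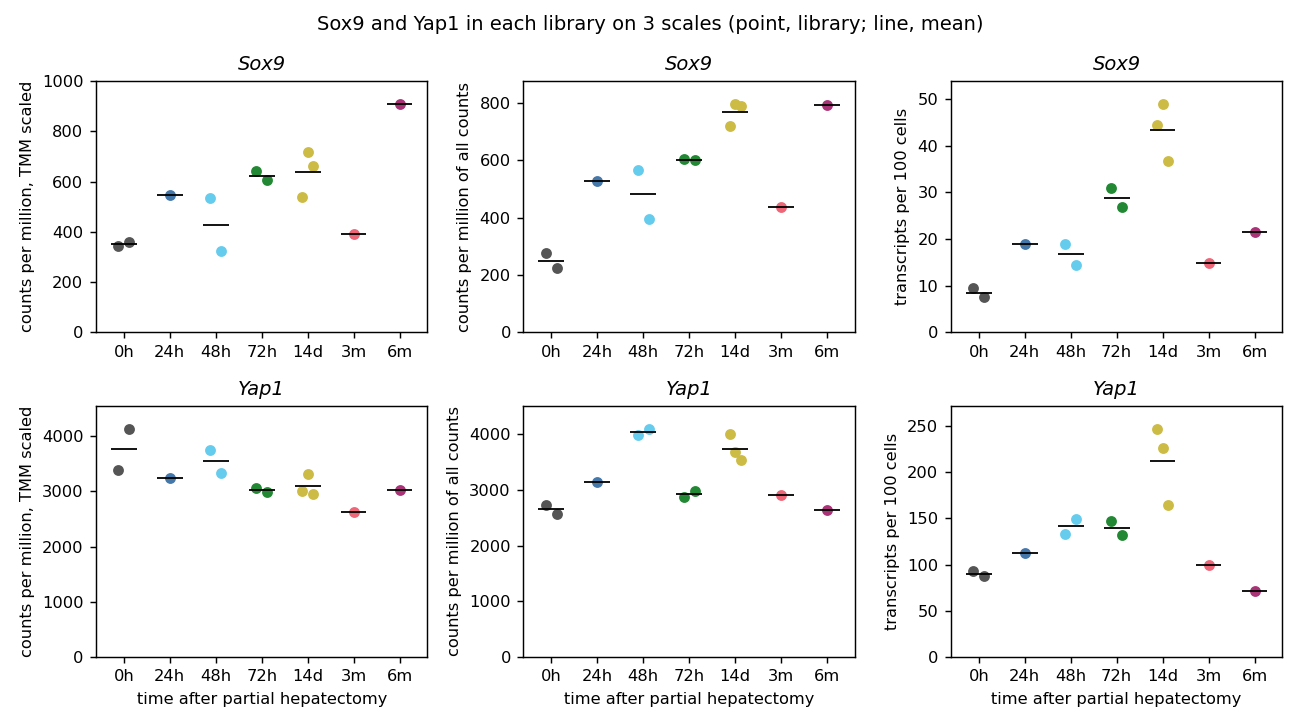
Level of Sox9 (top) and Yap1 (bottom) in each of the 12 libraries by time after partial hepatectomy, as TMM-scaled CPM, CPM of all counts and transcripts per 100 cells; points are libraries and lines are means. Sox9 at 14d lies between 540 and 718 TMM-scaled CPM, against 343 and 359 at 0h, while 9 of 10 later libraries lie below both 0h libraries for Yap1 when TMM scaled and 9 of 10 lie above both on each of the other scales.

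Yap1 was not called higher or lower than 0h at any time on the TMM scale. Its TMM-scaled level was 3398 and 4142 CPM at 0h, 3253 at 24h, 3753 and 3337 at 48h, 3065 and 2997 at 72h, 3009, 3321 and 2958 at 14d, 2624 at 3m and 3021 at 6m. Of the 10 later libraries, 9 lay below both 0h libraries, as for 8.08% of genes. Group means were 3770 ± 527 CPM at 0h, 3545 ± 294 at 48h, 3031 ± 48.2 at 72h (SD, n = 2 each) and 3096 ± 197 at 14d (SD, n = 3). Log2 fold changes against 0h were -0.21 ± 0.33 at 24h, -0.09 ± 0.26 at 48h, then -0.31 ± 0.26 at 72h, -0.28 ± 0.24 at 14d, -0.52 ± 0.33 at 3m and -0.32 ± 0.33 at 6m. The edgeR adjusted p-values ran from 0.400 to 0.824, and that over all 7 times was 0.730.

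The direction of Yap1 turned with the scale. Of all counts it took 2730 and 2575 CPM at 0h, 3136 at 24h, 3987 and 4104 at 48h, 2880 and 2971 at 72h, 4000, 3688 and 3533 at 14d, 2911 at 3m and 2633 at 6m. Here 9 of 10 later libraries lay above both 0h libraries (32.3% of genes did so), yet edgeR called no time; the log2 fold change was 0.61 at 48h (adjusted p = 0.0609) and 0.50 at 14d (0.0947). Per 100 cells there were 93.2 and 87.2 Yap1 transcripts at 0h, 112 at 24h, 133 and 150 at 48h, 148 and 132 at 72h, 248, 227 and 164 at 14d, 99.7 at 3m and 71.0 at 6m. The 6m library was below both 0h libraries and the other 9 above them, as at least 9 were for 40.4% of genes. Per cell, edgeR called Yap1 at 14d (log2 fold change 1.24, adjusted p = 0.00549), a value below the median gene's 1.57 at the same time.

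The panel holds 4 of the 26 genes listed for Hippo and YAP signalling: Yap1, Sox9 and the cyclins Ccnd1 and Ccne1, which drive entry into the cell cycle and are read by other pathways too. TMM scaled, 2 of the 4 rose at 24h, 48h and 72h, and these were the cyclins. Of all 99 genes, 15.2%, 11.1% and 9.09% rose at these times, and 15.2%, 0% and 11.1% at 14d, 3m and 6m. At 14d Ccnd1 alone rose, at 3m none was called by edgeR, and at 6m Ccnd1 and Sox9 rose. Ccnd1 had log2 fold changes of 1.99 ± 0.31 at 24h, 2.09 ± 0.27 at 48h and 1.94 ± 0.27 at 72h (edgeR adjusted p = 9.16e-05, 4.58e-06 and 3.21e-05). Ccne1 had 2.98 ± 0.68, 3.09 ± 0.62 and 2.12 ± 0.60 at the same times (edgeR adjusted p = 0.0101, 0.00389 and 0.0311). The median of the 4 was 1.31, 1.19, 1.38, 0.68, 0.34 and 0.96 over the 6 later times, against -0.09, 0.21, 0.12, 0.07, -0.02 and -0.15 for all genes tested. No TEAD or LATS gene of the list was measured.

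Of the 16 genes listed for Notch and bile duct fate, the panel holds Sox9 and Cldn7, a claudin of epithelial tight junctions. Cldn7 rose at 24h (log2 fold change 2.04 ± 0.57, edgeR adjusted p = 0.0161) and 14d (1.92 ± 0.47, 0.00335), and had 1.39 ± 0.50 at 72h (0.0646) and 1.38 ± 0.58 at 6m (0.0885). Of 38 tested Wnt ligands, receptors and modifiers, 6, 3, 3, 9, 0 and 6 rose over the 6 later times and 1, 1, 0, 2, 0 and 0 fell by the edgeR test on the TMM scale. Over all 99 genes, the shares that rose are those given above, and 7.07%, 12.1%, 6.06%, 13.1%, 0% and 12.1% fell. The Wnt list's median log2 fold changes were 0.39, 0.37, 0.25, 0.13, 0.15 and 0.66, beside the medians of all genes given above.

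Sox9 was found in a larger share of cells in every later section than at 0h. It was in 5.91% and 5.24% of cells at 0h, 9.95% and 8.92% at 24h, 12.1% and 11.04% at 48h, 14.6% and 15.7% at 72h, 21.4%, 22.2% and 18.4% at 14d, 7.46% at 3m (95% Wilson interval 6.91 to 8.06) and 9.15% at 6m (8.62 to 9.71). Because deeper cells show more genes, each cell was also thinned to 200 transcripts, which kept 57.7% to 94.5% of cells of a section. Thinned shares of Sox9 were 3.82% and 3.01% at 0h, 5.73% and 4.70% at 24h, 7.38% and 6.30% at 48h, 7.09% and 8.23% at 72h, 8.56%, 9.26% and 9.38% at 14d, 4.67% at 3m and 5.37% at 6m, again above both 0h sections in each case. Thinning drops cells under 200 transcripts. Cells with at least 5 Sox9 transcripts had median totals of 187 and 130.5 at 0h, against 411, 446 and 346 at 14d, so it dropped more of them at 0h. It fixes the total, as scaling by all counts does, and such shares were not computed for panel genes other than Sox9 and Yap1. Intervals cover counting error only.

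Yap1 was in 45.7% to 84.5% of the cells of a section. Its share was 56.9% and 53.3% at 0h, 64.2% and 59.9% at 24h, 68.7% and 72.2% at 48h, 70.0% and 66.8% at 72h, 84.5%, 81.8% and 73.4% at 14d, 58.7% at 3m (Wilson interval 57.6 to 59.8) and 45.7% at 6m (44.8 to 46.7). Thinned, it was 41.1% and 39.1% at 0h, 48.7% and 43.1% at 24h, 53.7% and 55.7% at 48h, 42.0% and 43.8% at 72h, 54.3%, 50.5% and 50.02% at 14d, 44.1% at 3m and 38.5% at 6m. The 72h shares were thus closer to 0h when thinned. As a floor for Sox9, the cells in the top 5% by Glul share (Glul, glutamine synthetase, marks the hepatocytes around the central vein) held Sox9 in 0% to 3.78% of cells. In 2 libraries no such cell held Sox9 (0 of 566 and 0 of 472, which allow up to 0.530% and 0.636%); these limits are on cells with a detected transcript, not on cells that express Sox9 below detection. Their median total was 331 to 528 transcripts, against 247 to 640 for all cells with at least 50.

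Sox9 lay on the portal side of the lobule at every time. The section was split into square tiles of 400 coordinate units, and each tile was scored by central minus portal hepatocyte genes. Over tiles, the Spearman correlation of the Sox9 share with that score, negative toward the portal side, was -0.612 and -0.532 at 0h, -0.596 and -0.596 at 24h, -0.671 and -0.487 at 48h, -0.685 and -0.664 at 72h, -0.686 and -0.624 at 14d, -0.534 at 3m and -0.521 at 6m. It was below 0 in all 12 sections with positions, as for 41.9% of the 74 genes tested. With Cyp2e1 left out of score and totals it ran from -0.657 to -0.450, below 0 in all 12, as for 25.7% of genes. These correlations describe tiles of 1 section each, which share its depth and makeup.

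Across 5 bands of tiles by score, from the most portal to the most central, Sox9 was lowest in the central band in all 13 sections. It was highest in the portal band in 8 of them and in the band next to it in the other 5, which were 1 section each of 24h, 72h and 6m and 2 of 14d. At 14d the portal band had 1194, 1046 and 1063 CPM and the second band 964, 1362 and 1219 CPM. At 0h it had 761 and 497 CPM in the portal band, against 9.67 and 8.10 CPM in the central band, where 9 and 8 transcripts were counted. The portal band was 4.75 to 196 times the central one over the 13 sections, with a median of 32.9, and above it in all 13. Totals without Cyp2e1 gave a ratio of 2.62 to 73.3, and per cell it was 5.34 to 115. Counting cells with fewer than 5 Sox9 transcripts alone, it was 5.16 to 118.

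In the central band, Sox9 stood highest at 14d. Its level there was 251, 142 and 157 CPM at 14d, against 9.67 and 8.10 CPM at 0h, and 5.89 to 73.2 CPM at the other times. The portal over central ratio was 4.75, 7.35 and 6.76 at 14d, against 78.7 and 61.4 at 0h. In cells with under 5 Sox9 transcripts, the central band had 103, 134 and 137 CPM at 14d, against 9.67 and 8.10 CPM at 0h. The portal band was also less free of central genes at 14d, with 4987, 5623 and 5517 CPM of Cyp2e1, against 553 and 195 CPM at 0h. The central band had 451441, 454501 and 466228 CPM of Cyp2e1 at 14d, against 637153 and 605985 CPM at 0h. It had less still at 24h and 48h (254968 to 389145 CPM). Cldn7 in the central band was 109, 55.5 and 65.3 CPM at 14d and 78.7 and 32.5 CPM at 24h, against 3.22 and 5.06 CPM at 0h. The part of these differences between bands in the Sox9 values was not tested.

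By limma on the tile correlations, Sox9 was called at no time (differences from 0h of -0.17 to 0.07 on Fisher's z scale, adjusted p from 0.505 to 0.994). In that test 12.2% of the 74 genes were called at 24h, 31.1% at 48h, then 1.35% at 72h, 14.9% at 14d and 0% at 3m and 6m, where 8 and 15 genes had an unadjusted p under 0.05. No other tool was run on the tile correlations. The tile test sees rank order within a section, while the ratio of the end bands sees the size of the gradient. Tiles held a mean of 1.19 and 0.99 Sox9 transcripts at 0h, against 5.15 and 5.49 in the 14d sections with positions. The part of these unlike counts in the correlations was not tested.

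**Figure D2:**
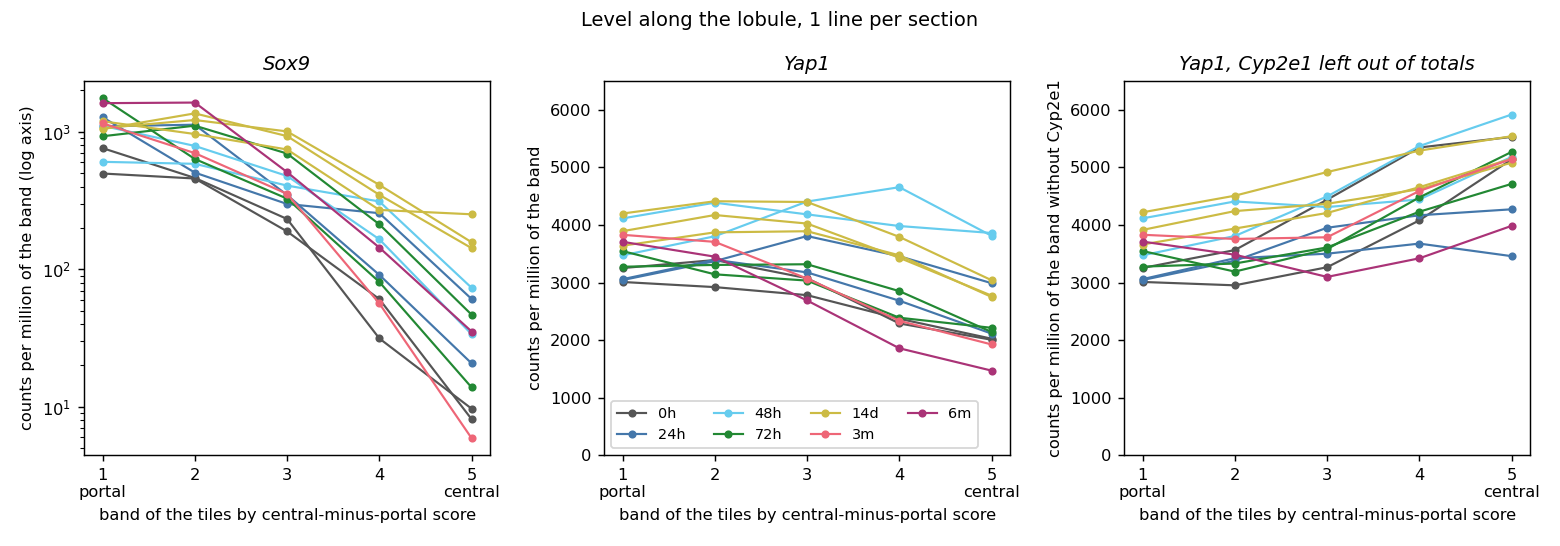
CPM of Sox9 (left, log axis) and Yap1 (middle), and Yap1 with Cyp2e1 left out of the totals (right), in the 5 bands of tiles from the portal to the central end, 1 line per section coloured by time. Sox9 is lower at the central than at the portal end in all 13 sections, least so at 14d; Yap1 is lower there in 12 of 13 sections with Cyp2e1 in the totals and in 0 of 13 without it.

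The lobule position of Yap1 depended on 1 gene, Cyp2e1, the ethanol-metabolizing cytochrome P450 of central hepatocytes, which took 25.5% to 63.7% of counts in the central band. With Cyp2e1 in, the tile correlation of Yap1 was -0.453 and -0.321 at 0h, 0.003 and -0.305 at 24h, 0.156 and -0.079 at 48h, -0.439 and -0.383 at 72h, -0.384 and -0.364 at 14d, -0.576 at 3m and -0.576 at 6m. With Cyp2e1 left out of score and totals, it was 0.569 and 0.491 at 0h, 0.354 and 0.147 at 24h, 0.542 and 0.211 at 48h, 0.380 and 0.359 at 72h, 0.321 and 0.327 at 14d, 0.355 at 3m and 0.121 at 6m. It was above 0 in all 12 sections, as for 43.2% of genes. The portal over central ratio was 0.911 to 2.52 with Cyp2e1 (above 1 in 12 of 13 sections), 0.586 to 0.931 without it (above 1 in 0 of 13), and 0.906 to 1.62 per cell (above 1 in 9 of 13). On every scale the Yap1 ratio was smaller than the Sox9 ratio of the same section.

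Of the Yap1 position, 1 time was called. At 48h the correlation was 0.45 ± 0.12 above 0h on Fisher's z scale (limma, adjusted p = 0.0127). Without Cyp2e1 it was -0.18 (limma adjusted p = 0.442), and without the first 48h section it was 0.33 (0.105). TMM scaled, Cyp2e1 itself fell at 24h, 48h, 72h and 14d, with a log2 fold change of -2.53 ± 0.25 at 48h (edgeR adjusted p = 2.21e-07). Over tiles, Sox9 was among the most uneven of 69 genes (ranks 1 to 14 by overdispersion in the 12 sections) and Yap1 among the most even (ranks 58 to 69).

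**Figure D3:**
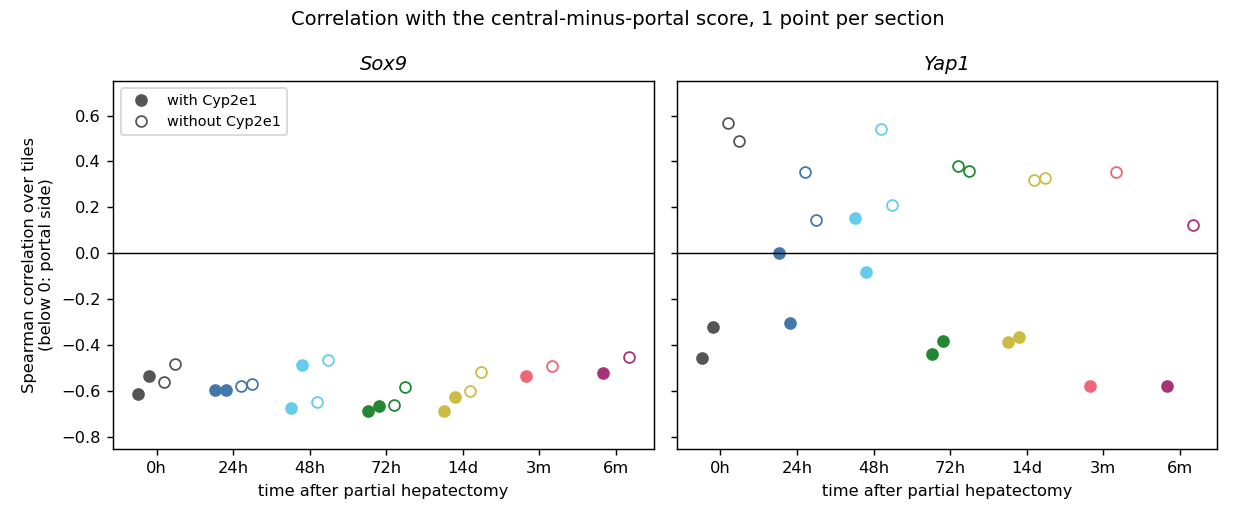
Spearman correlation over tiles of Sox9 (left) and Yap1 (right) with the central-minus-portal score, 1 point per section by time, with Cyp2e1 in score and totals (filled) or left out (open); values below 0 lie on the portal side. Sox9 is below 0 either way in all 12 sections, and Yap1 is above 0 in all 12 when Cyp2e1 is left out and below 0 in most with it.

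A small set of cells held much of the Sox9. Cells with at least 5 Sox9 transcripts numbered 1115 in all, 20 to 231 per section, and the threshold of 5 was chosen after seeing the data. They were 0.313% and 0.186% of cells at 0h, 0.773% and 0.959% at 24h, 0.579% and 0.209% at 48h, 1.38% and 0.829% at 72h, 1.18%, 1.48% and 1.09% at 14d, 0.801% at 3m (Wilson interval 0.629 to 1.02) and 1.16% at 6m (0.971 to 1.38). They held 9.02% (the second 48h section) to 48.7% (a 24h section) of the Sox9 counts of a section. The highest count in 1 cell was 9 to 56 per section. Outside these cells, and on the scale of all counts, Sox9 was also above both 0h sections at every later time. It was at 273 to 497 CPM, against 202 and 182 CPM at 0h. The TMM factors were 0.804 and 0.622 at 0h, 1.23 for the second 48h library and 1.11 at 3m. The order therefore need not hold on the TMM scale, on which this level was not computed. Nor was it computed for other genes.

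These cells held fewer transcripts in all and lay together. Their median total was 131 to 446 transcripts, against 231 to 632 for all cells of a section. Within 150 coordinate units, 3.83% to 33.9% of their neighbours were of the same kind, against 0.172% to 1.14% of the neighbours of other cells. Between 20% (the second 48h section) and 79.5% (a 24h section) had at least 1 such neighbour, against 0.840% to 4.47% of other cells. The portal band held 29.4% to 87.9% of them and the central band 0% to 6.67%, with none in 8 of 13 sections. In the portal band lay 43.0%, 29.4% and 32.4% of them at 14d, against 77.1% and 59.1% at 0h. At the other times this share ran from 31.9% (the second 72h section) to 87.9% (the first 72h section). It was 43.2% in the second 24h section and 43.5% at 6m, so a low portal share was not particular to 14d. In the central band lay 6.67%, 0.866% and 2.31% at 14d, against 0% in either 0h section.

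They were set against cells with no Sox9 transcript by mean CPM over the 12 libraries, with Sox9 left out of the totals, for the 95 genes with at least 100 transcripts in both kinds of cell together. The largest ratio was that of Cldn7, at 6059 CPM in cells with at least 5 Sox9 transcripts and 18.1 CPM in cells with none. Next were the Wnt ligand Wnt7b (690 and 3.28 CPM), the frizzled receptors Fzd3 (716 and 6.67 CPM) and Fzd9 (626 and 8.36 CPM) and the Wnt ligand Wnt4 (3332 and 102 CPM). Wnt7b, Fzd3 and Fzd9 rest on 156, 212 and 169 transcripts in the cells with at least 5, and in 1 library Fzd9 had none there. Ccnd1 ranked 7, at 82770 and 5456 CPM. At the other end, the amino acid transporter gene Slc16a10 had no transcript in the cells with at least 5, and 370 (7.95 CPM) in cells with none. At so low a level, 0 transcripts in so few cells cannot tell a lower level from an equal one. The central hepatocyte gene Cyp2e1 had 4347 and 214448 CPM, the bile acid synthesis gene Cyp7a1 102 and 1944 CPM (0 in 7 libraries), and Rgn, which encodes regucalcin, 945 and 8024 CPM. Yap1 ranked 19 of 95, with a mean log2 ratio of 1.71 (range 1.15 to 2.33). Since the cells were chosen by Sox9, no test was made.

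Yap1 was denser in the cells with at least 5 Sox9 transcripts than in cells with none, in all 13 sections. At 0h it had 11940 and 12064 CPM in these cells, against 2676 and 2543 CPM in cells without Sox9. At 14d it had 11358, 10911 and 10691 CPM, against 3843, 3521 and 3405 CPM. At 3m and 6m it had 8011 and 8409 CPM, against 2801 and 2505 CPM. The ratio over sections was 2.14 to 5.80, with 1.96 to 4.89 when Cyp2e1 was left out of the totals and 1.37 to 3.06 per cell. A ratio above 1 in all 12 libraries was found for 29.5% of the 95 genes. The counts behind it were 40 to 1194 Yap1 transcripts per section in these cells.

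Cells with 1 to 4 Sox9 transcripts differed less. Their Yap1 level was 0.999 to 1.49 times that of cells with none, 0.884 to 1.15 times when totals left out Cyp2e1, and 1.17 to 1.44 times per cell. Without Cyp2e1 the median ratio was 0.968, so its direction turned with that choice, whereas for cells with at least 5 it did not. Cells with a Sox9 transcript had a median total of 203 to 725 transcripts, against 235 to 604 for cells without.

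**Figure D4:**
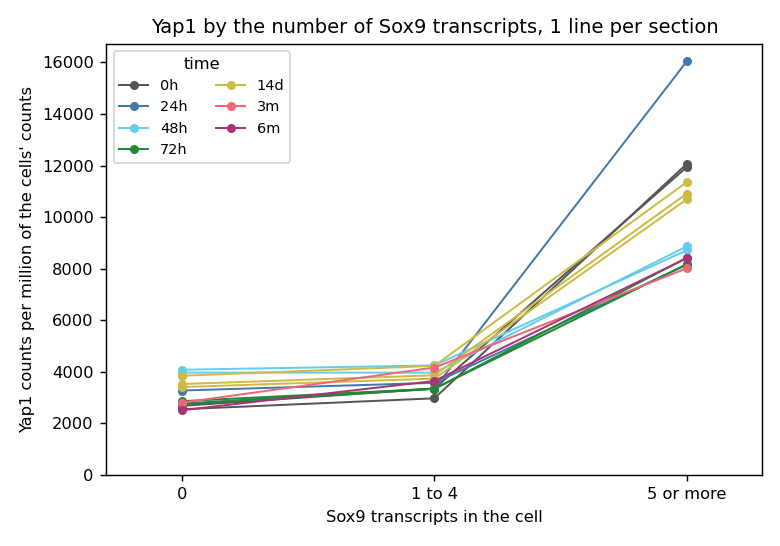
Yap1 CPM of the cells' counts in cells with 0, 1 to 4, and 5 or more Sox9 transcripts, 1 line per section coloured by time. The line of every section is highest at 5 or more (8011 to 16041 CPM), while 0 and 1 to 4 lie between 2505 and 4244 CPM.

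Yap1 levels in other kinds of cell were closer to the mean of all cells. Cells with at least 3 transcripts of the endothelial marker Pecam1, the stellate marker Lrat, the leukocyte marker Ptprc or the macrophage marker Adgre1 had median Yap1 levels over 12 libraries of 1.32, 1.41, 1.30 and 1.24 times those of all cells. They were above all cells in 12, 12, 12 and 11 of 12 libraries, in 12, 12, 12 and 8 with Cyp2e1 left out, and in 8, 11, 6 and 6 per cell. Cells in the top 5% by Glul share had 0.510 to 0.806 times the Yap1 level of all cells, 0.847 to 1.30 times with Cyp2e1 left out (above in 10 of 12 libraries), and 0.586 to 0.815 times per cell. Their Sox9 level was 0 to 0.371 times that of all cells.

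Sox9 and Yap1 were found in the same cell more often than the depth of the cells would give. Within 20 strata of total count, the odds ratio of finding both was 1.62 and 1.41 at 0h, 1.69 at 24h, 1.32 and 1.36 at 48h, 2.42 and 1.60 at 72h, 1.80, 1.92 and 1.65 at 14d, 1.91 at 3m and 1.94 at 6m. It was above 1 in all 12 libraries, as for 35.7% of the 70 genes tested with Sox9, and the first 72h library stood highest. In counts, 445 and 387 cells held both at 0h, where the strata gave 378 and 341, and 557 held both at 6m, where they gave 421. At 14d 2253, 3138 and 2441 cells held both, where the strata gave 2147, 2949 and 2261. Observed over expected cells ran from 1.05 (the first 14d library) to 1.32 (6m). The odds ratio of finding both was 1.12 to 1.74 with Cyp2e1 left out of the strata (above 1 in all 12, as for 20.6% of genes). It was 1.24 to 2.22 in cells with under 5 Sox9 transcripts. With both choices it was 1.13 and 1.06 at 0h, 1.28 at 24h, 1.096 and 1.21 at 48h, 1.56 and 1.15 at 72h, 1.203, 1.23 and 1.23 at 14d, 1.39 at 3m and 1.43 at 6m, above 1 in all 12, as for 21.2% of genes.

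**Figure D5:**
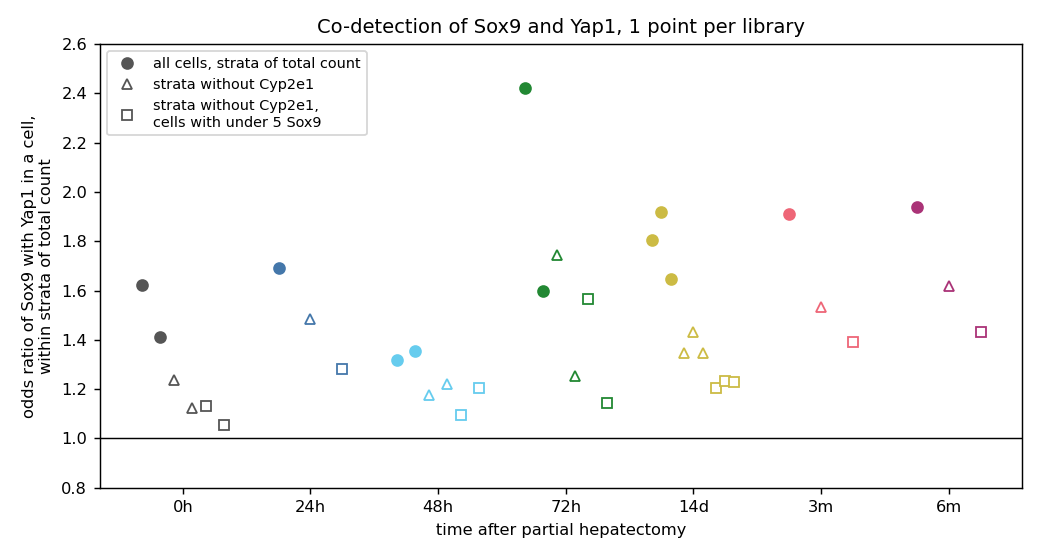
Odds ratio of finding Sox9 and Yap1 in the same cell within strata of the cell's total count, 1 point per library by time, for all cells (filled circles), with Cyp2e1 left out of the strata (triangles) and with that and cells with under 5 Sox9 transcripts alone (squares). All points lie above 1, from 1.32 to 2.42, from 1.12 to 1.74 and from 1.06 to 1.56.

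The odds ratio was not called different from 0h at any time. Differences in the log odds ratio were 0.11 ± 0.19 at 24h, -0.12 ± 0.15 at 48h, then 0.26 ± 0.15 at 72h, 0.17 ± 0.14 at 14d, 0.23 ± 0.19 at 3m and 0.25 ± 0.19 at 6m (limma adjusted p from 0.351 to 0.778). Of the 70 genes paired with Sox9, limma called 0% at 24h, 48h and 72h, where 10, 11 and 12 had an unadjusted p under 0.05. It called 12.9% at 14d, 4.29% at 3m and 8.57% at 6m. No other tool was run on the odds ratios.

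The genes found most often with Sox9 were the lipid droplet enzyme gene Hsd17b13 (mean odds ratio 3.89), the urea cycle gene Arg1 (3.77), the growth factor gene Igf1 (2.93), the Wnt co-receptor gene Lrp6 (2.90) and Wnt4 (2.89). Hsd17b13 and Arg1 are among the portal genes of the score. Those found least often with it were Wnt9b (0.163), Rspo3 (0.244), Pon1 (0.317), Tbx3 (0.321) and Rgn (0.321); Wnt9b and Rspo3 encode Wnt pathway ligands of central vein endothelium. Yap1 ranked 18 of 70 (1.70). For Yap1 the highest were the mitochondrial ATP synthase gene Atp5a1 (4.40), Cldn7 (2.87), Fzd9 (2.26), Wnt4 (2.17) and Lrp6 (2.03), with Sox9 at rank 12 of 82. The lowest were the central Wnt receptor gene Lgr5 (0.701), Tbx3 (0.758), Cyp7a1 (0.758), Cyp1a2 (0.892) and Oat (0.905). Atp5a1 was abundant, at 26861 to 50138 CPM in cells without Sox9, so its odds ratio depends on the cells in which it was missed. Its log odds ratio with Yap1 ran from 0.74 to 3.09 over the libraries. Cldn7 and Fzd9 were not among the 70 genes tested with Sox9, since fewer than 10 cells were expected to hold both in at least 1 library, and Wnt4 stood among the 5 highest for both members.

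Transcript positions were also read without cell outlines. Within 50 coordinate units of a Sox9 transcript, the densest genes relative to their share of the section were Cldn7 (mean log2 ratio of 5.52 over 12 sections), Wnt7b (5.002), Sox9 itself (4.92), Fzd3 (4.79) and Fzd9 (3.87, with 1 section below 0). These means add 0.5 to observed and expected transcripts, and in at least 1 section fewer than 1 transcript was expected for Wnt7b and Fzd3. Yap1 was 0.94 (range 0.23 to 1.73), rank 23 of 100, and above 0 in all 12 sections. This was not particular to Yap1, as Atp5a1 (0.66) and Pck1 (0.44), among other genes, were also above 0 in all 12. Cyp2e1 (-2.56) was part of the shares, and these ratios were not run without it. Around a Yap1 transcript the densest genes were Cldn7 (1.12), Wnt7b (0.78), Sox9 (0.78, range 0.30 to 1.53), Fzd3 (0.72) and Fzd9 (0.55). Yap1 around Yap1 was 0.22.

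Over the 12 libraries, the genes whose log2 CPM was most like that of Sox9 were Fzd6 (Pearson 0.77), the amino acid transporter gene Slc16a10 (0.73), Cldn7 (0.69), Wnt16 (0.68) and Wnt10b (0.65). For Yap1 they were the HDL gene Apom (0.72), the vitronectin gene Vtn (0.69), the gluconeogenesis gene Pck1 (0.68), the Wnt co-receptor gene Lrp5 (0.62) and the complement gene C8b (0.61). Sox9 and Yap1 had -0.33 with each other (Spearman -0.45), which put Yap1 at rank 78 of 98 for Sox9. Slc16a10, Wnt16 and Wnt10b rest on few counts, with as few as 6, 7 and 3 transcripts in a library among cells without Sox9. Libraries of 1 time and of 1 slide are not independent points, and TMM scaling is shared by all genes of a library.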

How the data were processed

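The 13 sections were measured with a 100-gene panel. The deposited tables hold whole-number counts of transcripts per gene and cell, and the deposited lists hold 1 position per detected transcript; how transcripts were decoded, how cells were outlined and the length of a coordinate unit are not given in the sources used here. Positions of the third 14d section were not used here, except that its cells' own coordinates were used for lobule bands and neighbours. Counts inside cells were summed per section, and both 24h sections (1 slide position, no number) to 1 library. Levels were tested with edgeR 4.0.16 (R 4.3.3; TMM, robust quasi-likelihood, time as the sole term) on the 99 genes that reached 10 counts in 2 or more libraries, with 5 residual degrees of freedom. Tile correlations and Mantel-Haenszel log odds ratios were tested with limma 3.58.1 (robust eBayes; 74 genes with at least 100 transcripts per section; 70 genes with at least 10 expected co-detected cells). Adjusted p-values are Benjamini-Hochberg over the genes tested, with a threshold of 0.05. Tiles had 400 coordinate units and at least 50 transcripts; the score used 9 central and 6 portal genes, without the gene tested. The members, lists and tests were chosen with earlier results of these data known. Besides Sox9 and Yap1, named genes are Ccnd1, Cldn7, Glul and Cyp2e1, the 5 most and least co-detected, the 5 densest and most alike, and up to 4 per list by p; genes of cells with at least 5 Sox9 transcripts and the marker genes were named after their values were seen. The scripts were tested on simulated data. DESeq2 1.42.0, other scalings, tile sizes, filters and left-out sections were alternatives.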

Additional observations from a re-analysis of the deposited data

How the results depend on the processing

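On the TMM scale the direction of Sox9 against 0h held under every alternative run except the 48h value without the first 48h section (-0.50). Log2 fold changes with 1 section left out were 0.48 to 0.86 at 24h, -0.495 to 0.61 at 48h, 0.58 to 0.87 at 72h, 0.78 to 0.98 at 14d, 0.15 to 0.32 at 3m and 1.34 to 1.49 at 6m. The edgeR adjusted p of Sox9 over all 7 times was 0.00639 to 0.163 with 1 section left out, 0.0158 by all counts and 0.0026 per cell; that of Yap1 was 0.212 to 0.895 and 0.0202 per cell. Sox9 at 14d passed with DESeq2 (0.84, adjusted p = 0.0175), with no filter (0.90, edgeR 0.0481) and with the 24h sections apart (0.98, edgeR 0.0120). Without the first 48h section edgeR also called Sox9 at 72h (0.70, adjusted p = 0.0440) and 14d (0.85, 0.00849). By all counts Sox9 passed at 48h (0.95), 72h (1.27) and 14d (1.62), and per cell at 72h (1.765) and 14d (2.35); at 6m it missed the threshold per cell (1.33) and with all listed transcripts (1.22). Yap1 log2 fold changes turned positive by all counts at 24h (0.24), 48h (0.61), 72h (0.14), 14d (0.50) and 3m (0.13), and per cell at those times (0.31, 0.65, 0.63, 1.24 and 0.14). With 1 section left out they were -0.49 to 0.032 at 24h, -0.56 to 0.02 at 48h, -0.57 to -0.18 at 72h, -0.42 to -0.15 at 14d, -0.55 to -0.28 at 3m and -0.35 to -0.16 at 6m. The causes of these shifts were not tested.

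Of the tile correlations (Fisher's z), Yap1 at 14d was -0.00026 with tiles of 200 units, and with tiles of 800 units Sox9 was 0.14 at 24h and 0.11 at 48h and Yap1 was 0.019 at 72h and -0.016 at 14d. Without Cyp2e1, Yap1 was -0.33 at 24h, -0.18 at 48h and -0.26 at 14d. With cells placed in tiles, a choice made after seeing the data, Sox9 at 48h was 0.0013 and Yap1 at 72h was 0.051, or 0.062 with cells under 5 Sox9 transcripts. With 1 section left out, Sox9 was -0.094 to 0.024 at 24h, -0.16 to 0.12 at 48h and -0.0023 to 0.12 at 3m, and Yap1 was 0.33 to 0.57 at 48h, -0.10 to 0.051 at 72h and -0.060 to 0.095 at 14d. The log odds ratio of co-detection was 0.016 at 48h and 0.39 at 14d (limma adjusted p = 0.0387) without strata, and -0.021 at 24h, -0.0094 at 72h and -0.15 at 14d when detection needed 2 transcripts. At 48h it was 0.016 with strata that leave out Cyp2e1 and 0.050 with that and cells under 5 Sox9 transcripts, both chosen after seeing the data. Also chosen then, totals without Cyp2e1 gave a median Yap1 ratio of 0.712 for the portal over the central band (1.45 as reported) and of 0.968 for cells with 1 to 4 Sox9 transcripts over none (1.17 as reported).

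Replicate numbers did not pair the sections (correlations of -0.50 to 0.25); with the replicate block Sox9 was 0.24 at 48h, 0.76 at 72h and 0.88 at 14d and was not called by edgeR (adjusted p = 0.143 at 14d). With slide as a block, Sox9 at 6m was 1.38 (edgeR adjusted p = 0.0273). At 14d it was 0.86 (edgeR adjusted p = 0.0887) in that fit. Slide 3 holds the 14d sections alone, so a slide term cannot adjust the 14d value. Over all alternatives the number of genes called against 0h was 20 to 35 at 24h (22 as reported; most with its sections apart), 16 to 42 at 48h (23; most by all counts), 9 to 38 at 72h (15; most per cell), 24 to 77 at 14d (28; most per cell), 0 to 24 at 3m (0; most without the first 0h section) and 8 to 35 at 6m (23; most with DESeq2). For position it was 0 to 26, 0 to 37, 0 to 20, 0 to 31, 0 to 7 and 0 to 21 over the 6 later times (9, 23, 1, 11, 0 and 0), with 0 at 24h, 48h, 72h and 14d without Cyp2e1. For co-detection it was 0 to 3, 0 to 2, 0 to 11, 0 to 24, 0 to 14 and 1 to 23 (0, 0, 0, 9, 3 and 6). The number of sections limits all of these tests.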
